A study of Rattus norvegicus with 18 samples.

Results

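The 10 genes described here (Hmox1, Nqo1, Gclc, Gclm, Txnrd1, Srxn1, Slc7a11, Osgin1, Sqstm1 and Gsr) are widely used targets of the transcription factor NRF2 and were followed in rat cortical neuroglial cultures exposed to glutamate. The rule that chose them lists their names and uses no measured value, although earlier results of these data were known when it was set. Each name matched 1 of the 31463 rows of every count table, and all 10 were among the 14398 genes that passed the filter on low counts. The cultures were grown from the cerebral cortex of newborn Wistar rats and hold neurons and glia together, and RNA was taken at 10 days in vitro. The 18 libraries fall into 6 groups of 3. Control cultures received no glutamate. Glutamate cultures were exposed to 100 µM glutamate, which overstimulates glutamate receptors (excitotoxicity), and RNA was taken 4 h after the model. Memantine cultures had 100 µM memantine, a blocker of NMDA-type glutamate receptors, as the positive control of protection. That group's label gives memantine alone; it is the series' design description that puts memantine within the glutamate model. In the other 3 groups a secreted preparation from human glial progenitor cells, themselves derived from induced pluripotent stem cells, was added a day before the 100 µM glutamate. These groups carry the labels Glutamate_vesicles, Glutamate_secret and Glutamate_BPC, and the labels do not say which of the last pair is the 3-100 kDa protein fraction and which the total secretome. Nothing in the labels says that the libraries of a group came from separate animals, so the p-values below measure only the spread between these libraries.

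Library totals ran from 8409574 (Control 1) to 17206354 (Glutamate_vesicles 2) counts. The TMM scaling factors ran from 0.417 (Control 1) to 1.58 (Memantine 2). The scaled library sizes behind the CPM thus ran from 3502364 (Control 1) to 24924518 (Glutamate_vesicles 2). Ribosomal RNA took 43.0% of the counts of Control 1 and between 3.04% and 26.6% of those of the libraries numbered 2 and 3. The marker check found neuronal, astrocytic, microglial and oligodendrocyte lineage genes in the cultures, while the summed endothelial markers stayed between 0.315 and 4.21 CPM (counts scaled to library size by TMM). The 7 neuronal markers together gave 1914 to 2603 CPM in Control, 540.2 to 1050.4 CPM in Glutamate and 599 to 3018 CPM in Memantine, where library 3 was the lowest. With any of the 3 preparations the neuronal sum lay between 464 and 976 CPM. The 7 astrocytic markers gave 2940.3 to 6382 CPM in Control and 5641 to 11316 CPM in Glutamate. In bulk RNA, fewer cells of a type and less RNA per cell cannot be told apart, and the part of these shifts in the values of the 10 genes was not tested.

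NRF2 (gene Nfe2l2) is held at a low level in resting cells by KEAP1, which hands it to a CUL3-RBX1 ubiquitin ligase. Oxidants and electrophiles modify KEAP1, NRF2 accumulates, pairs with a small MAF protein and binds antioxidant response elements (AREs) near its targets, where BACH1 can hold the same sites silent. In brain tissue this response is known mainly from astrocytes, which supply neurons with precursors of glutathione. The members cover its main arms. Hmox1 (haem oxygenase) degrades free haem and Nqo1 reduces quinones. Slc7a11 (the xCT subunit of the cystine/glutamate exchanger), Gclc and Gclm (catalytic and modifier subunits of glutamate-cysteine ligase) and Gsr (glutathione reductase) make or recycle glutathione. Txnrd1 and Srxn1 reduce thioredoxin and over-oxidised peroxiredoxin. Osgin1 is an oxidative stress-induced growth regulator, and Sqstm1 (p62) is an autophagy receptor that binds KEAP1.

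The upstream sequences below are shown because they carry the letters of the element through which NRF2 is known to act. RefSeq windows of 250 bases before the start site (build GRCr8) were matched for 8 of the 10 members. They lie on chromosomes 8 (Gclc), 2 (Gclm and Slc7a11), 19 (Nqo1 and Osgin1), 10 (Sqstm1), 3 (Srxn1) and 7 (Txnrd1, which has 2 windows). Both strands were searched for the ARE core in the forms TGACNNNGC and TGAGNNNGC, which were present in 10.1% and 14.2% of 33469 windows of this length, and in one form or the other in 22.8%. Of the 8 members, 3 held a match. Only these 250 bases were searched, so a member without a match may hold the element elsewhere. Gclm had TGACNNNGC on the opposite strand, 172 to 164 bases before the start. Txnrd1 had the same form in 1 of its windows, 78 to 70 bases before the start. Srxn1 had TGAGNNNGC at 118 to 110 and at 17 to 9 bases before the start. It also held the AP-1 form TGANTCA (6.34% of windows) at 62 to 56 bases, clear of both ARE matches, whereas the ATF4 form TGATGNAA (3.4% of windows) matched none of the 8. A match is a description of the letters and no evidence of binding. In the sequences, capitals mark the ARE letters. Gclm is chr2:213031885-213032134 on the plus strand, Srxn1 chr3:161064562-161064811 on the plus strand and Txnrd1 chr7:22755905-22756154 on the minus strand.
Gclm: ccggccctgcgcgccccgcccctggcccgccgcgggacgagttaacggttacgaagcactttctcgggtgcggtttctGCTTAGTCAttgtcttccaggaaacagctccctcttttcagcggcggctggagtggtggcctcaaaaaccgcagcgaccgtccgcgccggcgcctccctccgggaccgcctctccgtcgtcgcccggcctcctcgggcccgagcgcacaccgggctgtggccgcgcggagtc
Srxn1: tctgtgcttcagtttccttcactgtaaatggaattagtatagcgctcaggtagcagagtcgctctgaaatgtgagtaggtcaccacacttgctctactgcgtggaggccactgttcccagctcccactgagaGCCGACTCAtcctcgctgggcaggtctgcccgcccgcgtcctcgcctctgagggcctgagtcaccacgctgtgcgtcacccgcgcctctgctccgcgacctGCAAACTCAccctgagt
Txnrd1: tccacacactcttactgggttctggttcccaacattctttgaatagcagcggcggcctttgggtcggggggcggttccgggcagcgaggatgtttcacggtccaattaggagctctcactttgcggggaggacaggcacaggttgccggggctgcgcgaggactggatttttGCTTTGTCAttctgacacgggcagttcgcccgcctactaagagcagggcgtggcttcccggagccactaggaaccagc

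The question of the first comparison was what glutamate did to the cultures. None of the 10 members passed an adjusted p of 0.05 (edgeR's quasi-likelihood test, Benjamini-Hochberg over 14398 genes), where the background was 0% of all genes (0 genes; 1167 genes, 8.11%, had an unadjusted p below 0.05). DESeq2 and the likelihood-ratio test called none of the members either, and 232 and 45 genes in all. Hmox1 was the single member with an unadjusted p below 0.05, higher like 2.13% of all genes, at 2.65-fold the Control level. Of the 10 differences, 9 were above 0 on the log2 scale and the median member stood at 0.78, beside 0.085 for all genes. Over all genes, 8062 of 14398 differences were above 0. Ranges of CPM did not overlap between Glutamate and Control for 1 member, Hmox1, which was higher, beside 4.48% of all genes that were higher in this way.

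Hmox1 gave 72.8, 183 and 279 CPM in Control libraries 1 to 3 and 697, 393 and 327 CPM in Glutamate. The values with memantine were 261, 249.9 and 343 CPM. With the preparations they were 205, 552 and 336 CPM (Glutamate_vesicles), 342, 480.2 and 175 CPM (Glutamate_secret) and 344, 559 and 181 CPM (Glutamate_BPC). Every Glutamate library lay above every Control library, by a wide margin in number 1 and a narrow one in number 3, and Control 1 was the lowest of all 18. The log2 difference between Glutamate and Control was 1.40 ± 0.57 (SE), 95% interval 0.19 to 2.61, with an unadjusted p of 0.0257 and an adjusted p of 0.498 by edgeR. Within replicate numbers 1, 2 and 3 it was 3.26, 1.10 and 0.23, largest in number 1. Same-numbered libraries of Glutamate and Control did not all deviate together from their group means (correlations of 0.591, 0.571 and -0.117). By the pairing rule used here, that every correlation exceed 0.1, these libraries were not taken as pairs, for Hmox1 or the other members. Those of numbers 1 and 2 did deviate together. Differences within a number are given as descriptions. Without Glutamate 1 the estimate was 1.01 (unadjusted p = 0.117, edgeR), without Control 1 it was 1.03 (unadjusted p = 0.0973, edgeR), without Control 2 it was 1.42 (unadjusted p = 0.0549, edgeR), and without Control 3 it was 1.88. Control 1 is also the library with 43.0% ribosomal RNA, and with that share as a covariate the estimate was 1.71 (edgeR adjusted p = 0.0725).

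Nqo1 gave 108, 47.8 and 102 CPM in Control and 182, 63.3 and 190.1 CPM in Glutamate. Memantine libraries held 87.1, 35.5 and 228 CPM of it. The preparations gave 262, 97.7 and 143 CPM in Glutamate_vesicles, 239.6, 127 and 269 CPM in Glutamate_secret, and 192, 119.6 and 188 CPM in Glutamate_BPC. The number 2 library was the lowest of the 3 in each of the 6 groups, so the groups overlapped although each Glutamate library exceeded the Control library of its own number. The log2 difference was 0.76 ± 0.61 (SE) (adjusted p = 0.958, edgeR), and within the numbers it was 0.75, 0.40 and 0.90.

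**Figure D1:**
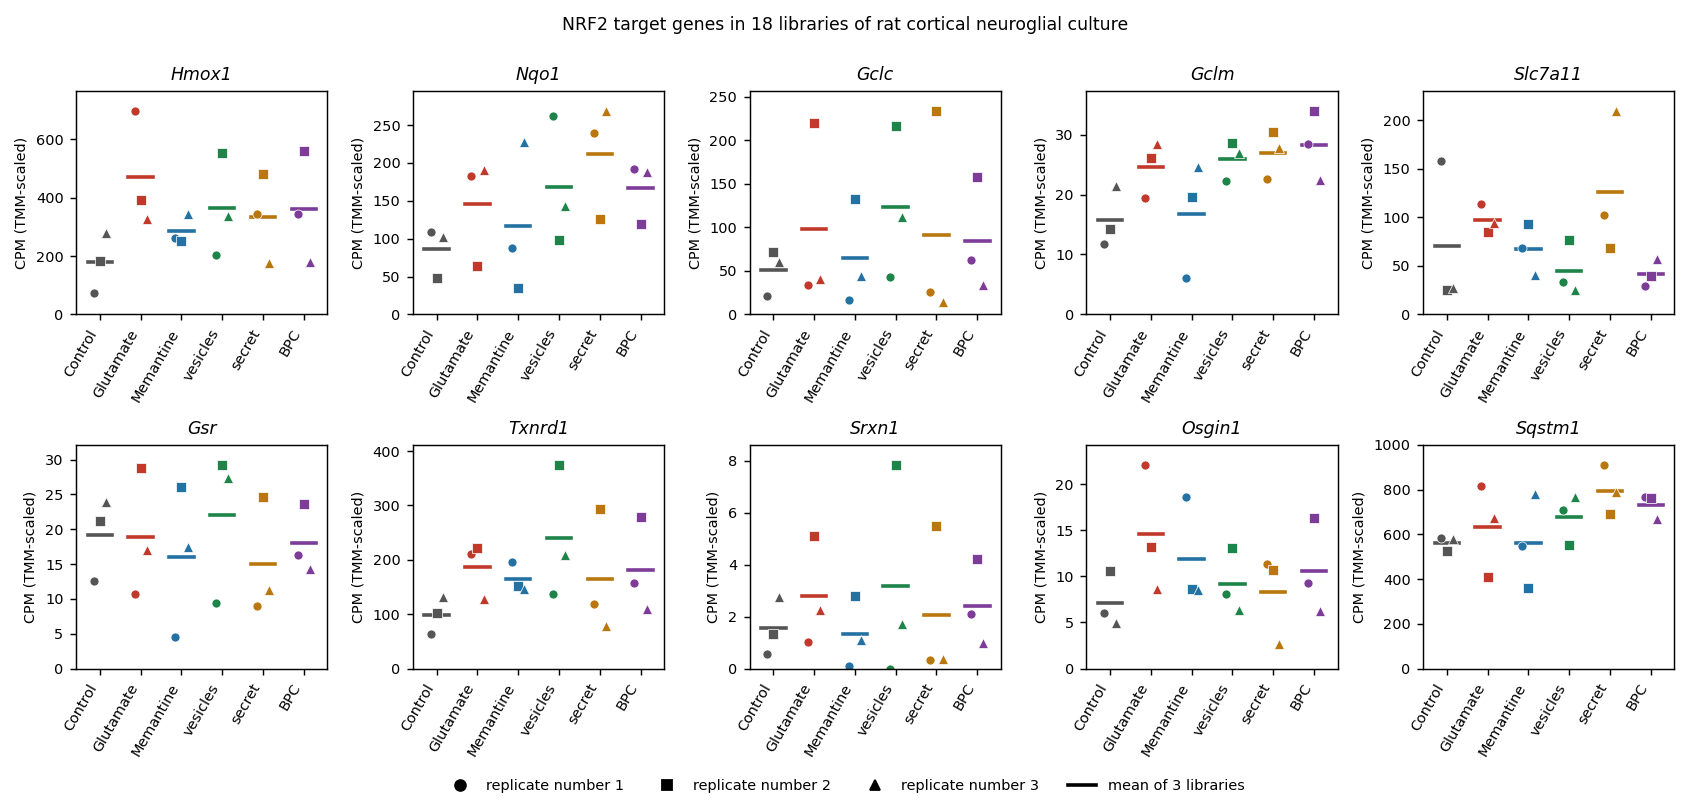
CPM (counts scaled to library size by TMM, vertical axes) of the 10 NRF2 target genes in the 6 groups (horizontal axes); each point is 1 library, its shape gives the replicate number and the bar is the mean of 3. Hmox1 has all 3 Glutamate libraries (327 to 697 CPM) above the Control libraries (72.8 to 279 CPM), while Gclc is set apart by number 2, at 71.9 to 234 CPM.

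In the glutathione arm, Slc7a11 exports glutamate in exchange for cystine. It gave 158, 25.4 and 27.4 CPM in Control, 113, 84.9 and 94.1 CPM in Glutamate and 68.6, 92.7 and 40.6 CPM in Memantine. Control 1 stood far above the other Control libraries and above all 3 Glutamate libraries, while the Glutamate libraries were close together. The log2 difference of 0.48 ± 0.65 (SE) (adjusted p = 0.999, edgeR) became 1.88 without Control 1, at an unadjusted p of 0.00512 and an adjusted p of 0.295. With the ribosomal RNA share as a covariate the difference was 0.79 (edgeR adjusted p = 0.531).

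Gclc encodes the catalytic subunit that sets the rate of glutathione synthesis. It gave 21.1, 71.9 and 60.4 CPM in Control and 34.1, 220.3 and 40.8 CPM in Glutamate, where library 2 was several times the other libraries. The difference of 0.94 ± 1.06 (SE) (log2; adjusted p = 0.999, edgeR) was -0.45 without that library. Within numbers 1, 2 and 3 it was 0.69, 1.61 and -0.57. The number 2 library was the highest for Gclc in every group, and leaving out Glutamate 2 alone keeps Control 2. Gclm, the modifier subunit, was steadier, with 11.7, 14.2 and 21.4 CPM in Control and 19.5, 26.03 and 28.5 CPM in Glutamate. Its log2 difference was 0.64 ± 0.41 (SE) (adjusted p = 0.862, edgeR) and was positive within each number, at 0.73, 0.86 and 0.41. Gsr, which returns oxidised glutathione to its reduced form, showed 12.6, 21.3 and 23.9 CPM in Control and 10.7, 28.8 and 17.02 CPM in Glutamate. Its estimate was -0.033 ± 0.60 (SE) on the log2 scale, 95% interval -1.31 to 1.24, and its sign turned when Control 2, Control 3, Glutamate 1 or Glutamate 3 was left out (up to 0.25).

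Among the thioredoxin genes, Txnrd1 gave 63.4, 102 and 132 CPM in Control and 211, 222 and 128 CPM in Glutamate. Glutamate 3 fell just inside the Control range, and the log2 difference was 0.92 ± 0.52 (SE) (adjusted p = 0.765, edgeR). Srxn1 was counted thinly, with 66 to 230 counts a group, and gave 0.571, 1.33 and 2.75 CPM in Control and 1.03, 5.08 and 2.24 CPM in Glutamate. It had 0 counts in Glutamate_vesicles 1, where 3 counts, the limit that a count of 0 allows, would be 0.299 CPM (counting error only). The interval of Srxn1, -2.05 to 3.63 on the log2 scale, does not separate a large fall from a large rise. The replicate number took 57.2% of the variance of its log2 CPM, and the part of depth was not tested. The estimate of 0.79 ± 1.34 (SE) was 0.025 without Glutamate 2.

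Osgin1 gave 5.996, 10.6 and 4.901 CPM in Control and 22.1, 13.2 and 8.66 CPM in Glutamate, with Glutamate 1 the highest of the 18 libraries and Glutamate 3 inside the Control range. Its log2 difference of 1.03 ± 0.58 (SE) had an unadjusted p of 0.0959 and an adjusted p of 0.764 by edgeR. Sqstm1, whose product binds KEAP1, gave 582, 524 and 579 CPM in Control and 818, 409.8 and 671 CPM in Glutamate. The Control libraries were nearly level and Glutamate 2 lay below them. The estimate for Sqstm1 was 0.17 ± 0.37 (SE) on the log2 scale, and -0.051 without Glutamate 1.

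The 12 libraries of the 4 glutamate groups without memantine were then set against the 3 Control libraries, each group weighted equally. By edgeR without a covariate or replicate block, no member passed an adjusted p of 0.05 here either, where 570 genes (3.96% of all tested) did, 37 higher and 533 lower (48 genes in all without Control 2). By unadjusted p below 0.05 (2358 genes, 16.4%), 3 members were higher (Hmox1, Txnrd1 and Gclm), beside 4.87% of all genes. The log2 difference was 1.09 ± 0.48 (SE) for Hmox1 (unadjusted p = 0.0373, edgeR adjusted p = 0.261). For Txnrd1 it was 0.95 ± 0.44 (SE) (unadjusted p = 0.0453, edgeR adjusted p = 0.29). For Gclm it was 0.74 ± 0.34 (SE) (unadjusted p = 0.0481, edgeR adjusted p = 0.298). Without Control 1 the unadjusted p of Txnrd1 was 0.177 and that of Gclm 0.174, by edgeR. With the ribosomal RNA share as a covariate, Hmox1 stood at 1.13 and was called (edgeR adjusted p = 0.0452). Nqo1 stood at 0.99 ± 0.52 (SE) (edgeR adjusted p = 0.369) and was higher by nearly the same amount within each number, 1.00, 1.04 and 0.92. Not every group met the pairing rule with Control. With a replicate block Nqo1 stood at 1.01 and was called (edgeR adjusted p = 0.0456), among 1731 genes. The CPM ranges of all 10 members overlapped between the 12 libraries and Control, beside 1.77% of all genes that were higher and 5.41% that were lower without overlap.

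The remaining members of this pooled comparison were Gclc at 0.94, Srxn1 at 0.70, Osgin1 at 0.54 and Sqstm1 at 0.33 on the log2 scale. Slc7a11 (-0.0065) and Gsr (-0.074) lay at 0 within their errors of 0.51 and 0.47. Without Glutamate_secret 2 the estimate was 0.39 for Gclc and 0.036 for Srxn1, and without Control 3 it was 0.32 for Osgin1. Leaving out Control 1 brought the Hmox1 estimate down to 0.72 (unadjusted p = 0.174, edgeR adjusted p = 0.547). The same step took Slc7a11 to 1.40 (unadjusted p = 0.0141, edgeR adjusted p = 0.203), and the Gsr estimate turned positive without Control 2, Control 3 or Glutamate_vesicles 1 (up to 0.11).

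**Figure D2:**
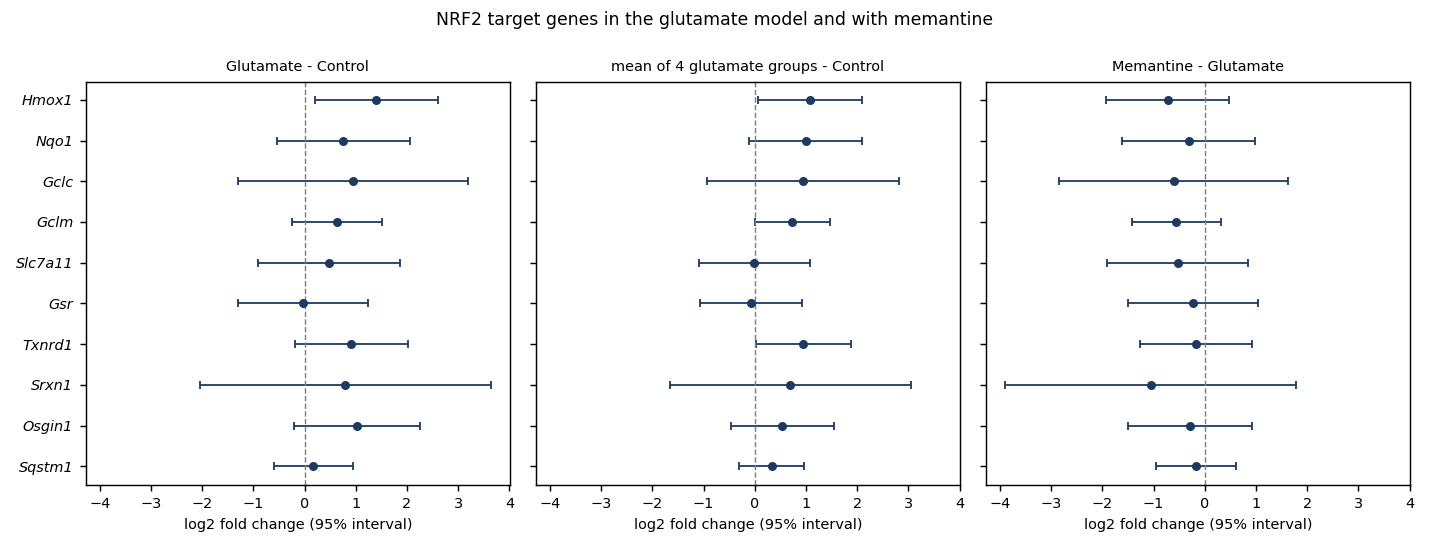
Log2 fold change (horizontal axes) of each NRF2 target gene with its 95% interval for Glutamate against Control, the mean of 4 glutamate groups against Control, and Memantine against Glutamate; points are edgeR estimates from 18 libraries. For Hmox1 the interval clears 0 in the first panel (0.19 to 2.61), and all 10 points lie left of 0 in the memantine panel with intervals that include it.

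Memantine, the positive control, was compared with Glutamate. This comparison and that of Glutamate with Control share the Glutamate libraries, so opposite signs between them are not independent results. All 10 members had lower estimates with memantine, and none passed either threshold, beside 0.201% of all genes that were lower at an unadjusted p below 0.05 and 0% (0 genes) at an adjusted p below 0.05 (731 genes, 5.08%, at an unadjusted p below 0.05 in either direction, and 2 genes by DESeq2). The median of the members was -0.42 on the log2 scale, beside -0.020 over all genes, of which 7425 of 14398 were below 0. Gclm had the smallest p, with 6.12, 19.6 and 24.6 CPM in Memantine and a log2 difference of -0.55 ± 0.41 (SE) (unadjusted p = 0.198, edgeR adjusted p = 0.999). Hmox1 stood at -0.73 ± 0.56 (SE), 95% interval -1.92 to 0.46, and its values differed by -1.42, -0.65 and 0.072 within numbers 1, 2 and 3. The other estimates ran from -1.05 (Srxn1) to -0.17 (Sqstm1). These values are from the fit without a replicate block, although same-numbered Memantine and Glutamate libraries deviated together. With the block the median of the members was -0.47, and 1156 genes had an unadjusted edgeR p below 0.05. No gene then passed an adjusted p of 0.05.

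Leaving out 1 library turned the sign of the memantine estimate for Nqo1, Gclc, Gsr, Osgin1 and Sqstm1. The estimate stayed negative in every such fit for Hmox1 (-0.94 to -0.34), Gclm (-0.94 to -0.16) and Slc7a11 (-0.84 to -0.28). The same held for Txnrd1 (-0.39 to -0.041) and Srxn1 (-2.18 to -0.28). Memantine 3 had a neuronal marker sum of 599 CPM, near the Glutamate libraries, whereas the other libraries of the group gave 2055 and 3018 CPM. Its Nqo1 level of 228 CPM was also the highest of the group. Over the 6 groups Nqo1 followed the replicate number, with medians of 187, 80.5 and 189 CPM in numbers 1, 2 and 3. Without Memantine 3 the log2 estimate was -1.24 for Nqo1 (unadjusted p = 0.0622, edgeR adjusted p = 0.407) and -0.94 for Gclm (unadjusted p = 0.0464, edgeR adjusted p = 0.357), and 254 genes were called over the whole table. Gclc stood at 0.78 without Glutamate 2. Nqo1 stood at 0.11 without Memantine 2, and Osgin1 at 0.12 without Glutamate 1. Sqstm1 stood at 0.058 without Glutamate 1 and at 0.069 without Memantine 2. Gsr stood at 0.21 without Glutamate 2 and at 0.20 without Memantine 1.

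Against Control, Memantine left 7 members higher and 3 lower, none called at an adjusted p below 0.05 (0% of all genes, and 161 genes or 1.12% at an unadjusted p below 0.05). Txnrd1 gave 195, 152 and 147 CPM, all above the Control range, beside 1.16% of all genes higher in this way. Its log2 difference was 0.73 ± 0.52 (SE) (unadjusted p = 0.176, edgeR adjusted p = 1.00). Hmox1 was at 0.67 ± 0.56 (SE) and Osgin1 at 0.73 ± 0.58 (SE), and the other 7 members lay between -0.27 and 0.44. Without Control 1 Hmox1 was at 0.30 and without Memantine 1 Osgin1 at 0.26, and the Osgin1 values differed by 1.61, -0.28 and 0.77 within numbers 1, 2 and 3. In this and the next comparisons the members named, beside Hmox1, are those with the smallest p, picked after their values were seen.

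The 3 secreted preparations were each compared with Glutamate alone, and the 3 comparisons share the Glutamate libraries. In the fits without a replicate block, none of the 10 members passed an adjusted or an unadjusted p of 0.05 with any preparation, against backgrounds of 1.08% (vesicles), 0.681% (secret) and 1.07% (BPC) of all genes at the unadjusted threshold and 0% at the adjusted one (DESeq2 called 3, 0 and 1 genes). Same-numbered secret and BPC libraries did deviate together with those of Glutamate. With the block, 463 (vesicles), 466 (secret) and 486 (BPC) genes had an unadjusted edgeR p below 0.05. No gene then passed an adjusted p of 0.05. The values that follow are from the fits without the block. Slc7a11 was the member farthest from 0 with the vesicles and with BPC. It gave 33.2, 76.4 and 25.5 CPM with the vesicles, 29.3, 39.1 and 57.5 CPM with BPC and 102, 67.9 and 209 CPM with secret. All libraries with vesicles or BPC lay below the Glutamate libraries, beside 3.38% and 4.24% of all genes that were lower without overlap, whereas the secret libraries spread to both sides of them. The log2 difference was -1.11 ± 0.66 (SE) with the vesicles (unadjusted p = 0.11, edgeR adjusted p = 0.99998) and -1.22 ± 0.66 (SE) with BPC (unadjusted p = 0.0836, edgeR adjusted p = 1.00).

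Hmox1 had lower estimates with all 3, at -0.37 ± 0.56 (SE) (vesicles), -0.51 ± 0.56 (SE) (secret) and -0.39 ± 0.56 (SE) (BPC). They were near 0 without Glutamate 1 for the vesicles (0.019) and BPC (0.0073), and -0.11 for secret. Osgin1 stood at -0.67 ± 0.57 (SE), -0.81 ± 0.58 (SE) and -0.46 ± 0.57 (SE) in the same order, with 8.08, 13.1 and 6.37 CPM in the vesicle group, 11.3, 10.8 and 2.72 CPM in the secret group and 9.24, 16.4 and 6.29 CPM in the BPC group. Every one of these libraries was below Glutamate 1, and their ranges overlapped that of Glutamate. The other members lay between 0.071 and 0.36 with the vesicles, between -0.37 and 0.54 with secret, and between -0.22 and 0.21 with BPC. The 95% intervals were wide: for Hmox1 with the vesicles they ran from -1.56 to 0.81, so that neither a lower nor a higher level was separated from no difference.

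**Figure D3:**
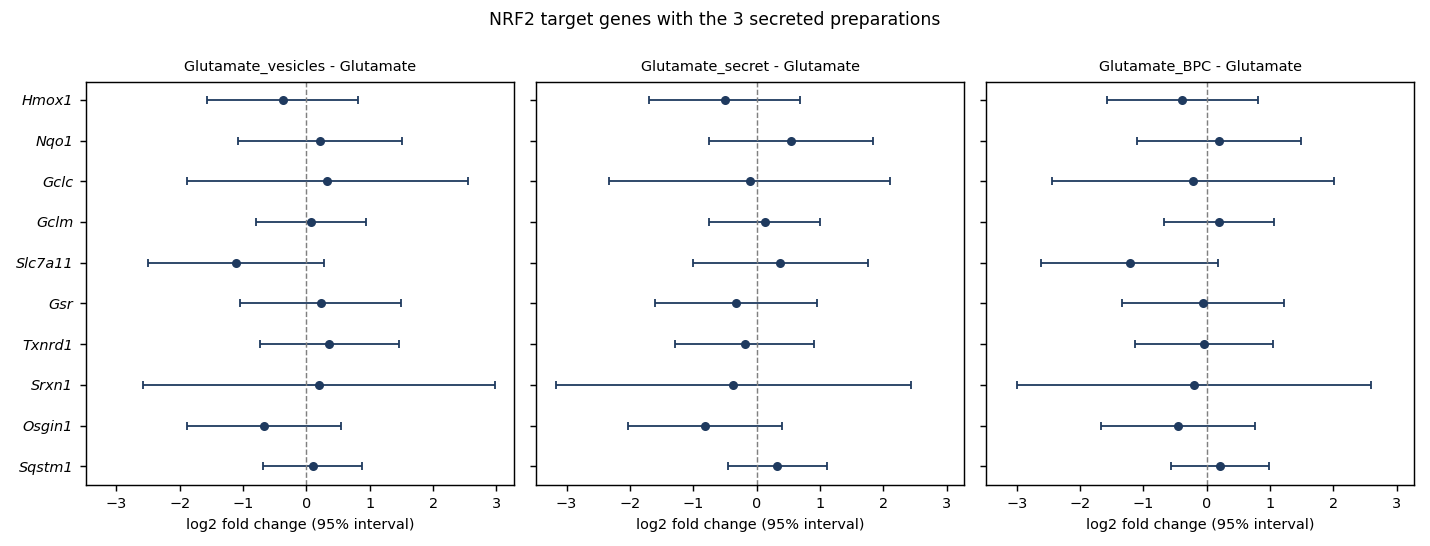
Log2 fold change (horizontal axes) of each NRF2 target gene with its 95% interval for Glutamate_vesicles, Glutamate_secret and Glutamate_BPC, each against Glutamate (3 libraries a group; edgeR). All 30 intervals include 0, and Slc7a11 lies farthest left with the vesicles (-1.11) and BPC (-1.22).

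Set against Control, each preparation group showed most members above the untreated level, with no member called at an adjusted p below 0.05 (0.0139%, 0% and 0% of all genes for vesicles, secret and BPC, against 11.6%, 11.8% and 11.3% at an unadjusted p below 0.05). With the vesicles, Txnrd1 gave 137, 374 and 209 CPM, all above Control, at a log2 difference of 1.28 ± 0.52 (SE) (unadjusted p = 0.0269, edgeR adjusted p = 0.355), and it was the single member with an unadjusted p below 0.05, beside 3.99% of all genes that were higher at that threshold. Without Glutamate_vesicles 2 it stood at 0.81 (unadjusted p = 0.162, edgeR). In this comparison libraries of the same number deviated together. A fit with a replicate block called 538 genes where the fit without it called 2, and none was a member. With secret, Nqo1 stood at 1.30 ± 0.62 (SE) (unadjusted p = 0.0527, edgeR adjusted p = 0.432), and its libraries lay above Control. Gclm gave 22.5, 30.5 and 27.7 CPM with secret, also above Control, at 0.76 ± 0.41 (SE). With BPC, Gclm gave 28.4, 33.95 and 22.5 CPM and differed by 0.83 ± 0.41 (SE) (unadjusted p = 0.0616, edgeR adjusted p = 0.471). Hmox1 was at 1.03, 0.90 and 1.02 in the 3 groups, which share the Control libraries. These estimates were 0.60 without Glutamate_vesicles 2, 0.53 without Control 1 and 0.56 without Glutamate_BPC 2, in the same order. Within number 3 the Hmox1 difference was 0.27 with vesicles, -0.67 with secret and -0.62 with BPC. It was above 0 in numbers 1 and 2 with each preparation. Members whose ranges were higher without overlap numbered 2 with vesicles, 3 with secret and 3 with BPC, beside 9.72%, 6.88% and 12.2% of all genes. The other members ran from -0.63 to 1.27, from -0.36 to 0.86 and from -0.73 to 0.95.

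Across all 6 groups, the test of any difference gave no member an adjusted p below 0.05 (1 gene, 0.00695% of all tested; 7.75% at an unadjusted p below 0.05). Its smallest unadjusted p among members was 0.167, for Slc7a11, at an edgeR adjusted p of 0.99998. Control had the lowest mean of the 6 groups for 7 members (Hmox1, Nqo1, Gclc, Gclm, Txnrd1, Osgin1 and Sqstm1). Memantine was lowest for Srxn1, Glutamate_BPC for Slc7a11 and Glutamate_secret for Gsr. Glutamate was highest for Hmox1 (472 ± 197 CPM (SD, n = 3), against 178 ± 103 CPM (SD, n = 3) in Control) and for Osgin1. Glutamate_secret was highest for Nqo1 (212 ± 75.03 CPM (SD, n = 3)), Slc7a11 and Sqstm1, Glutamate_vesicles for Gclc, Gsr, Txnrd1 (240.1 ± 122 CPM (SD, n = 3)) and Srxn1, and Glutamate_BPC for Gclm (28.3 ± 5.75 CPM (SD, n = 3)). When the groups were ordered by mean, 49 of the 50 steps between neighbours were smaller than the larger SD of the pair, the exception being Memantine over Control for Hmox1.

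The replicate number took a larger share of the variance than the treatment group did in 5 of 10 members. Gclc was the extreme case, with the number accounting for 66.8% of the variance of its log2 CPM over 18 libraries and the group for 12.2%. Its number 2 libraries gave 71.9, 187 and 234 CPM (lowest, median and highest of 6), against 16.3, 29.9 and 62.4 CPM in number 1. Gsr (64.9% against 10.8%) and Srxn1 (57.2% against 10.4%) followed the same direction, with the highest median in number 2, and Nqo1 (49.8% against 33.1%) the opposite one, with number 2 at 35.5, 80.5 and 127 CPM. Osgin1 was the other member in which the number outweighed the group (43.8% against 25.8%). In Slc7a11 the number took 2.38% and the group 42.5%, in Hmox1 10.2% and 38.4%, and in Gclm 23.4% and 46.2%. Over all genes tested the medians were 42.2% for the number and 22.4% for the group, and the number outweighed the group in 64.4%. These shares make no allowance for 6 groups against replicate numbers 1 to 3. A split into more parts takes a larger share even without an effect, which favours the group in these counts. Ribosomal RNA moved with the number as well, at 13.4% to 43.0% of counts in number 1, 3.04% to 8.15% in number 2 and 6.58% to 26.6% in number 3, and its part in the members' values was not tested beyond the fits with that share as a covariate.

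**Figure D4:**
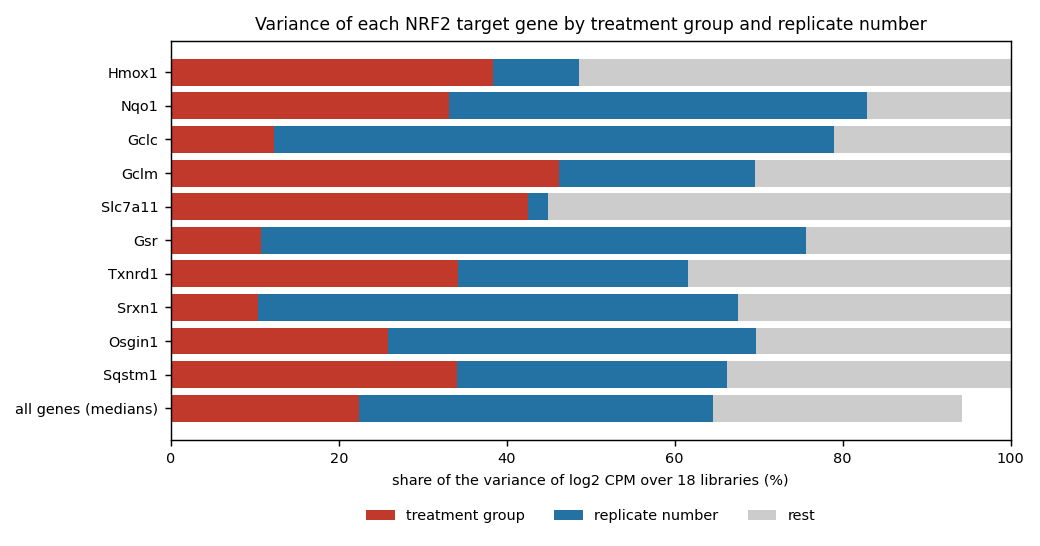
Share of the variance of log2 CPM over 18 libraries (horizontal axis, %) taken by treatment group, replicate number and the rest, for each NRF2 target gene and as medians over 14398 genes (medians need not add to 100). Number takes 66.8% in Gclc and 2.38% in Slc7a11. The shares are not adjusted for there being more groups than replicate numbers.

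Of the 45 pairs of members, 25 had a positive Pearson r of log2 CPM over the 18 libraries, which share groups and numbers, with a median of 0.18 and a range from -0.49 to 0.88. After centring within each replicate number 34 of the 45 were positive, with a median of 0.27 and a range from -0.51 to 0.86. Hmox1 and Nqo1 had an r of 0.060 before centring and 0.42 after it, and Nqo1 and Gclm 0.35 and 0.77. Genes most like 3 of the members, by Pearson r over the same 18 libraries, were Lif (0.905), Sbno2 (0.894) and Maff (0.885) for Hmox1. For Nqo1 they were Haus4 (0.967), Npepl1 (0.966) and Hyal2 (0.965), and for Slc7a11 Prune2 (0.926), Chd4 (0.919) and Spty2d1 (0.912).

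Of 11 genes for NRF2 and its regulators, all were tested and edgeR's quasi-likelihood test called none at an adjusted p below 0.05 in Glutamate against Control, in the pooled comparison or in Memantine against Glutamate. Maff, a small MAF partner, was the one farthest from 0. It averaged 1.19 ± 1.05 CPM (SD, n = 3) in Control and 10.02 ± 5.53 CPM (SD, n = 3) in Glutamate, a log2 difference of 2.92 ± 0.81 (SE) (unadjusted p = 0.00249, edgeR adjusted p = 0.282), with no overlap of the ranges. DESeq2 (adjusted p = 0.011) and the likelihood-ratio test (adjusted p = 0.0441) called it in this comparison, and both did in the pooled one (adjusted p = 0.000716 and 0.00405). In the pooled comparison Maff stood at 2.59 ± 0.72 (SE) (edgeR adjusted p = 0.057), and in Memantine against Glutamate at -1.18 ± 0.76 (SE) (edgeR adjusted p = 0.999). Nfe2l2 itself averaged 41.8 ± 21.5 CPM (SD, n = 3) in Control and 90.7 ± 46.3 CPM (SD, n = 3) in Glutamate, at 1.11 ± 0.70 (SE) (edgeR adjusted p = 0.835). Keap1, the inhibitor, was at 0.078 ± 0.40 (SE) on the log2 scale. The ligase genes Cul3 and Rbx1 were at 0.14 and -0.17, the repressors Bach1 and Bach2 at 0.57 and 0.77, and the small MAF genes Mafg and Mafk at -0.14 and 0.20. Nfe2l1, a relative of NRF2, stood at 0.028 and the lysosomal regulator Tfe3 at 0.53.

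Other parts of the pathway were read from wider lists. Of 4 further genes of glutathione synthesis and cystine uptake, Ggt7 stood at a log2 difference of -1.17 ± 0.39 (SE) in Glutamate against Control (unadjusted p = 0.00915, edgeR adjusted p = 0.369), and Gss (glutathione synthetase) stood at 1.15 ± 0.62 (SE) (edgeR adjusted p = 0.732). Of 35 other NRF2 target genes, 31 were found and 28 tested. None of these was called, 26 of the 28 estimates were above 0 in Glutamate against Control, and the median was 0.47, beside 0.085 over all genes. In that comparison 8062 of all 14398 genes were above 0, the share to set beside the sign count of each list. Genes of a list share the same libraries, so their signs are not independent. The smallest p values there belonged to Procr at 2.66 ± 0.87 (SE) (edgeR adjusted p = 0.364) and Hspb8 at 0.97 ± 0.43 (SE) (edgeR adjusted p = 0.566). Memantine against Glutamate gave 20 of the 28 below 0, with a median of -0.14.

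Among 21 antioxidant enzymes outside the core set, 1 was called, in the pooled comparison, where 3.96% of all genes were called. Glrx (glutaredoxin) was lower in the pooled comparison, at a log2 difference of -0.98 ± 0.23 (SE) (edgeR adjusted p = 0.0273), with 37.9 ± 8.88 CPM (SD, n = 12) against 73.8 ± 22.4 CPM (SD, n = 3) in Control. The call was lost without Control 1 (-0.71, edgeR adjusted p = 0.192), without Control 2 (edgeR adjusted p = 0.0908), and without Glutamate_vesicles 3, Glutamate_BPC 2 or Glutamate_BPC 3 (edgeR adjusted p of 0.0562, 0.0532 and 0.0545), and with no filter on low counts (edgeR adjusted p = 0.0544). In Glutamate against Control it stood at -1.31 ± 0.31 (SE) (edgeR adjusted p = 0.282). DESeq2 called it there (-1.33, adjusted p = 0.00417), as did edgeR with a replicate block (-1.27, adjusted p = 0.0398) and with block and ribosomal RNA covariate together (adjusted p = 0.0251). Aifm2 stood at 0.37 ± 0.32 (SE) (edgeR adjusted p = 0.979). The list's other members lay mostly on the other side, with 19 of 21 estimates above 0 and a median of 0.37. The 15 ATF4 targets, a stress program that shares Slc7a11 with NRF2, were all above 0 with a median of 0.80, none called, led by Atf3 at 2.09 ± 0.53 (SE) (edgeR adjusted p = 0.282) and Ppp1r15a at 1.97 ± 0.52 (SE) (edgeR adjusted p = 0.282). With memantine all 15 were below the Glutamate level, with a median of -0.50 and none called. Both comparisons share the Glutamate libraries, so their signs are not independent. Of 12 heat shock genes, 8 were above 0 in Glutamate against Control with a median of 0.31, and none was called. Bag3 stood at 1.48 ± 0.58 (SE) (edgeR adjusted p = 0.461) and Hspb1 at 1.86 ± 1.08 (SE) (edgeR adjusted p = 0.782).

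Neuronal markers had estimates of the opposite sign. All 7 were below 0 in Glutamate against Control, with a median of -1.60, and in the pooled comparison Tubb3 (-2.04 ± 0.29 (SE), edgeR adjusted p = 0.00456) and Nefl (-1.80 ± 0.46 (SE), edgeR adjusted p = 0.0402) were called lower. Over all 14398 genes, 533 were called lower there. The Nefl call was lost in 13 fits that left out 1 library, most clearly without Control 1 (-1.08, edgeR adjusted p = 0.391) and Control 2 (-1.91, edgeR adjusted p = 0.13), and the Tubb3 call in none. Stmn2 stood at -1.72 ± 0.65 (SE) in Glutamate against Control (edgeR adjusted p = 0.45). In Memantine against Glutamate all 7 were above 0, with a median of 1.39 and none called. All 7 astrocytic and all 7 microglial markers had positive estimates in Glutamate against Control, with medians of 0.67 and 1.01 and none called. Gfap stood at 1.09 ± 0.67 (SE), S100b at 0.84 ± 0.78 (SE), C1qa at 1.19 ± 1.07 (SE) and Aif1 at 1.01 ± 0.95 (SE). Of other lineages, 7 oligodendrocyte lineage, 3 fibroblast or mural and 1 endothelial marker passed the filter. Sox10 was at 0.85 ± 0.48 (SE), Cldn11 at 0.75 ± 0.45 (SE), Col1a1 at 1.14 ± 0.77 (SE), Col1a2 at 0.57 ± 1.08 (SE) and Pecam1 at -2.04 ± 0.82 (SE), again with none called. How far these shifts in cell type markers enter the values of the 10 members was not tested.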

How the data were processed

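Bulk RNA-seq of 18 rat neuroglial culture libraries (6 groups of 3) was analysed. Per the labels, the authors named STAR and Salmon and the build rn6. Their methods describe transcript quantification by Salmon and summing to genes, so the values the authors deposited are expected counts per gene (estimated and not whole), with 31463 rows a library. They were rounded to whole numbers here. Library kit and instrument are described differently by the labels and by the study's methods. Ribosomal RNA rows (78) were kept; 5581 rows carry an Ensembl identifier in place of a gene name.

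Groups were taken from sample titles. CPM are scaled by TMM. Genes passing filterByExpr (minimum count 10, total 15) numbered 14398. Each comparison was a contrast in 1 model with a mean per group, fitted on all 18 libraries with edgeR 4.0.16 (R 4.3.3; quasi-likelihood F test, two-sided, prior count 2) and adjusted by Benjamini-Hochberg over all genes tested. The study's own test, edgeR's likelihood-ratio test, was an alternative, as were DESeq2 1.42.0, DESeq2 size factors, no filter, a replicate block, removal of ribosomal RNA rows, the log2 ribosomal RNA share as covariate, only the groups compared, and leaving out each library. The block combined with that covariate was added after seeing the data. The likelihood-ratio test was run without the study's fold threshold of 1.5. It also had no term for day, which the study's supplement removed before clustering, so its counts do not repeat the study's own. The fits were tested on simulated counts.

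Members and lists were chosen with earlier results of these data known. The genes named are all 10 members, every tested regulator, of each other list the called genes or else the pair with the smallest unadjusted p in Glutamate against Control, and the 3 genes most similar to Hmox1, Nqo1 and Slc7a11. The lists are glutathione synthesis and cystine uptake, NRF2 and its regulators, other NRF2 target genes, antioxidant enzymes, ATF4 targets, heat shock genes, and markers of neurons, astrocytes, microglia, oligodendrocyte lineage, fibroblast and mural cells and endothelium.

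Same-numbered libraries were taken as paired where every correlation of their deviations from the group means exceeded 0.1. The reported fits did not use this pairing in any comparison. It entered only through the replicate block, an alternative. The correlations for numbers 1, 2 and 3 were 0.756, 0.889 and 0.573 (Memantine and Glutamate), 0.705, 0.892 and 0.445 (Glutamate_secret and Glutamate), 0.454, 0.751 and 0.484 (Glutamate_BPC and Glutamate) and 0.6, 0.505 and 0.209 (Glutamate_vesicles and Control). The other comparisons did not pass, among them Glutamate and Control (0.591, 0.571 and -0.117). The labels do not say what a number stands for. Promoter windows are RefSeq's (GRCr8, not the files' build) and were searched for exact letters.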

Additional observations from a re-analysis of the deposited data

How the results depend on the processing

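Numbers of genes called are given in the order Glutamate, Glutamate_vesicles, Glutamate_secret and Glutamate_BPC, each against Control, then the mean of 4 groups against Control, then any difference among the 6 groups. The reported counts were 0, 2, 0, 0, 570 and 1. The likelihood-ratio test gave 45, 160, 223, 61, 1024 and 587, DESeq2 232, 496, 449, 256, 1164 and 717, and the ribosomal RNA covariate 32, 57, 581, 18, 1554 and 385. With the replicate block, including comparisons that did not meet the pairing rule, they were 166, 538, 700, 251, 1731 and 497. With the block and the covariate together they were 614, 674, 1482, 1122, 2296 and 1007. Only the groups compared gave 0 (vesicles) and 963 (mean of 4 groups), and no filter gave 5 for any difference. Against Glutamate, DESeq2 called 2 (Memantine), 3 (vesicles) and 1 (BPC), the likelihood-ratio test 2 (vesicles), the covariate 1 (Memantine), 1 (vesicles) and 3 (secret), and the block with the covariate 1 (vesicles), 3 (secret) and 1 (BPC). Leaving out 1 library at a time gave 0 to 63, 0 to 124, 0 to 226, 0 to 42, 48 (without Control 2) to 870 and 0 to 500 in the first order, and 0 to 254 for Memantine against Glutamate; the highest count of each came without Memantine 3. No member was called in any of these fits that left out a library.

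Members passed an adjusted p of 0.05 in 3 other settings. In the mean of 4 groups against Control, Nqo1 did so with the replicate block (1.01, edgeR adjusted p = 0.0456) and Hmox1 with the ribosomal RNA covariate (1.13, edgeR adjusted p = 0.0452). With the block and the covariate together Hmox1 (1.11, edgeR adjusted p = 0.0308; 1.70, edgeR adjusted p = 0.0312 in Glutamate against Control) and Nqo1 (1.02, edgeR adjusted p = 0.0338; 1.33, edgeR adjusted p = 0.0337 in Glutamate_secret against Control) did. The block changed no other call of a member. Outside the members, Maff passed in the mean of 4 groups by the likelihood-ratio test, DESeq2, the block, the covariate, both together and only the groups compared (adjusted p from 0.000716 by DESeq2 to 0.0466 by edgeR), and in Glutamate against Control by 3 of these. Nfe2l2 passed only with block and covariate together (edgeR adjusted p = 0.0478 and 0.0425).

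Signs turned for Gsr in Glutamate against Control (0.053) and Nqo1 in Memantine against Glutamate (0.088) with the covariate, for Slc7a11 in Memantine against Glutamate with block and covariate (0.21), and for Slc7a11 in the mean of 4 groups with no filter (0.026), the block (0.13), the covariate (0.44), only the groups compared (0.0021) and both (0.48). When single libraries were left out, estimates ran from -0.45 to 1.35 (Gclc), -0.47 to 0.25 (Gsr) and -0.051 to 0.41 (Sqstm1) in Glutamate against Control. In Memantine against Glutamate they ran from -1.24 to 0.11 (Nqo1), -1.70 to 0.78 (Gclc), -0.78 to 0.21 (Gsr), -0.77 to 0.12 (Osgin1) and -0.48 to 0.069 (Sqstm1). For Hmox1 they ran from -0.80 to 0.019 (vesicles) and -0.85 to 0.0073 (BPC) against Glutamate, and in the mean of 4 groups from -0.40 to 1.40 (Slc7a11) and -0.30 to 0.11 (Gsr). The cause was not tested. Of the 1008 values with a library left out, 960 kept direction and side of the threshold, as did 475 of 504 under other alternatives; of the members' values not printed, 65 of 936 and 36 of 468 turned sign. Group means with DESeq2 size factors moved by more than 1 SD in 0 of 60. Srxn1 had the fewest counts of the members, and the part of depth in its wide interval was not tested.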
